A study of Mus musculus with 30 samples.

Results

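The 7 genes described here encode the ligands and receptors of the vascular endothelial growth factor (VEGF) family that were listed by name, namely the ligands Vegfa, Vegfb, Vegfc and Pgf and the receptors Kdr, Flt1 and Flt4. They were chosen by their symbols in the gene and transcript tables, which gave 7 of 45594 genes and 27 of 113468 transcripts. Kdr was in addition selected on its level over the days in tissue without vessels, so its levels are given as a description with no test of day. The other 6 genes belong by family name, and their differences between days were tested.

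The study followed a mouse induced pluripotent stem cell (iPSC) line through differentiation into retinal organoids by poly(A) RNA sequencing, with 3 biological replicate libraries at each of 10 days (D0, D4, D7, D10, D12, D15 and D18, then D22, D25 and finally D32). All 30 libraries came from 1 wild-type clone that carries the Nrl-GFP reporter of rod photoreceptors, made from embryonic fibroblasts with inducible Oct3/4, Sox2, Klf4 and c-Myc lentiviruses, so the replicates do not sample other lines. D0 was undifferentiated iPSCs kept on feeder cells, D4 was 36 whole aggregates a library, and from D7 the neural retina was dissected from 30 organoids at D7, 20 at D10 and 12 from D12 onwards. The cultures stood in 5% oxygen until D10 and in 20% oxygen afterwards. Matrigel was added on D1, N2 medium was used from D7, taurine, 9-cis retinal and IGF1 were added from D10, and serum, B27 and amino acids from D26, so that D32 differs from D25 in medium as well as in age.

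VEGF ligands are secreted dimers that bind receptor tyrosine kinases. Vegfa binds Kdr (VEGFR2), the main signalling receptor of endothelial cells, and Flt1 (VEGFR1), which binds Vegfa tightly, signals weakly and also exists as a secreted decoy. Vegfb and Pgf bind Flt1 but not Kdr, while Vegfc binds Flt4 (VEGFR3), the receptor of lymphatic endothelium, and after cleavage also Kdr. In the eye, Vegfa from retinal neurons and glia guides the growth of retinal vessels and is induced by low oxygen, and Kdr is known from neural retinal cells as well as from endothelium.

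Total estimated counts lay between 16.77 and 24.53 M a library (median 19.23 M), and levels are given as CPM, counts scaled to library size, after TMM scaling. The D4 libraries differed among themselves: replicate 2 had the lowest TMM factor of all libraries (0.524), and replicate 3 stood apart from the others of its day in Kdr and Vegfc. A technical split by the share of Rpl3 reads that fell on copies of that gene gave a set 1 of 12 libraries (11.95% to 31.829%), made up of D0, D7 and, between D10 and D25, the second replicates, and a set 2 of the other 18 (70.943% to 86.488%). Over D10 to D25, where the sets cut across days, 4.71% of 18291 genes differed between them by edgeR's quasi-likelihood test with day in the model. Of the VEGF genes 0 were among them, and 1 was at an unadjusted p below 0.05, Vegfb, with a log2 difference of set 1 minus set 2 of -0.28 (adjusted p = 0.108 by edgeR). Without D22 replicate 1, Vegfb did differ between the sets (-0.32, adjusted p = 0.0488). Retinal progenitor markers summed to 1006 CPM at D0, 4882 at D12 and 782 at D32, and photoreceptor markers to 9029 CPM at D32, so the cells behind the libraries changed through the course. In bulk libraries a lower share of the cells that express a gene and less RNA per cell cannot be told apart.

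Kdr was listed near 1 CPM in the stem cells and was among the well expressed genes of the later organoids. Its 3 libraries held 0.711, 0.511 and 1.03 CPM at D0, and 0.622, 0.866 and 6.88 at D4. From the first dissected retina onwards the values were 23.9, 25.16 and 21.7 CPM at D7, 85.7, 77.9 and 71.0 at D10, 110, 125 and 66.7 at D12, and 147, 187 and 139 at D15. They were 268, 206 and 183 CPM at D18, 348, 314 and 330 at D22, 417, 252 and 313 at D25, and 265, 265 and 207 at D32. Every library from D7 onwards lay above every library of D0 and D4. The high D4 value belongs to replicate 3, and without it the D4 libraries overlapped D0. The day means ran from 0.750 ± 0.260 CPM (SD, n = 3) at D0 to 330 ± 17.1 at D22, which is a ratio of 440.5, and the lowest library behind them held 9.87 estimated counts. Ordered by their means, the days stood as D22, D25, D32, D18, D15, D12, D10, D7, D4 and D0, and 6 of the 9 neighbours in that order overlapped; D15 and D12, D10 and D7, and D7 and D4 did not. Over D10 to D25 the single library of set 1 held 77.9, 125, 187, 206, 314 and 252 CPM and the mean of the set 2 libraries was 78.3, 88.1, 143, 226, 339 and 365 CPM. In set 1 the value at D25 lay below that at D22. The set 2 mean lay above it, but its 2 libraries went different ways. Replicate 1 held 348 CPM at D22 and 417 at D25, and replicate 3 held 330 and 313.

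**Figure D1:**
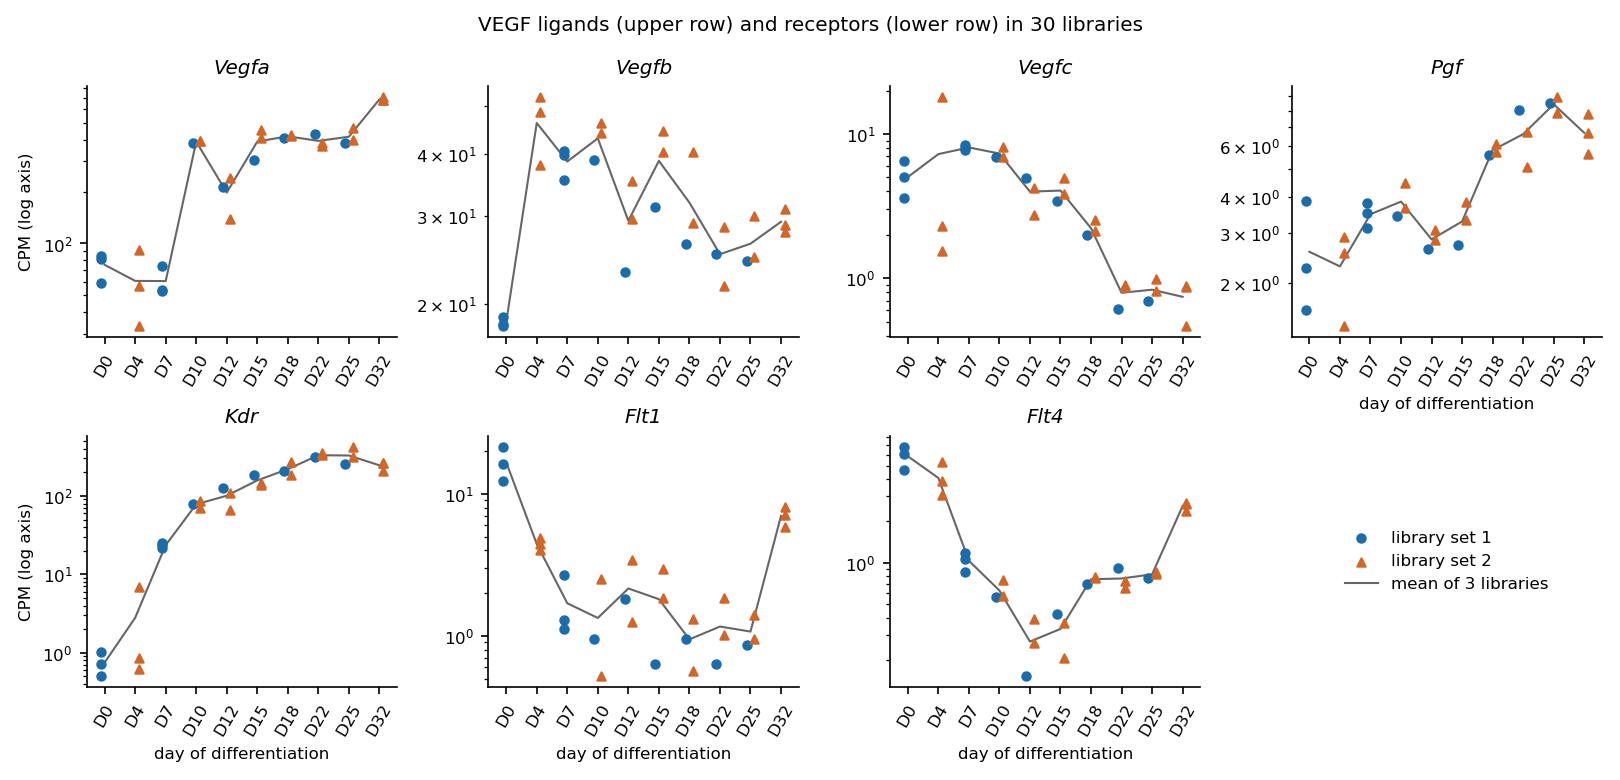
Level of the 7 VEGF genes in each of 30 libraries by day of differentiation, in CPM on log axes whose range differs between panels. Circles are libraries of set 1, triangles those of set 2, and the line joins the means of 3 libraries. The Kdr panel spans 0.511 to 417 CPM, the widest range of the 7, while Flt1 and Flt4 are highest at D0 and higher at D32 than from D10 to D25.

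Markers of endothelium, the cell type in which Kdr is best known, were highest in sum at D0, where Kdr was lowest. The 20 endothelial markers summed to 185.6 ± 5.19 CPM at D0, 12.4 ± 0.470 at D7, 11.3 ± 2.54 at D22 and 12.28 ± 0.634 at D32. Of the D0 sum, 128.6 CPM was Pecam1, an adhesion molecule that mouse pluripotent cells also carry. Of 5 defining genes of the list, each lay below 2 CPM in all 9 libraries of D22 to D32. Pecam1 lay between 0.522 and 1.84 CPM there, Tek, the angiopoietin receptor, between 0.0996 and 1.12, Tie1, its partner, between 0.0521 and 0.508, and the transcription factor Erg between 0.147 and 0.451. Cdh5, the cadherin of endothelial junctions, was listed at 0 in 6 of the 9 and held at most 2.03 estimated counts in a library. Other genes of the list stood higher. Cldn5, a tight junction protein, was the highest marker per length in every library of D12 to D22, and its mean was 0.346 CPM at D7, 0.787 at D12, 4.46 ± 2.64 at D18 and 3.46 ± 0.872 at D22, days over which Kdr was also higher than at D7. It was then 0.548 CPM at D25 and listed at 0 in all libraries of D32, where Plvap or Ramp2 was the highest marker (4.62 to 5.91 TPM). At D4, Cdh5 stood at 0.967, 1.43 and 3.97 CPM and Tek at 0.560, 0.697 and 2.31 in replicates 1 to 3. Pecam1 and Tie1 were also highest in replicate 3, the D4 library with the high Kdr value, and Erg was highest in replicate 2.

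To compare genes with each other, transcript estimates were divided by transcript length and scaled to the same total in each library (TPM). On that scale Kdr stood at 0.194 TPM at D0 against 114 TPM for the 20 endothelial markers summed, and at 112 ± 8.19 TPM at D22 against 12.6 ± 3.14. The ratio of Kdr to the sum was 0.700 ± 0.0207 at D7, 4.13 ± 0.509 at D10, 9.20 ± 2.07 at D22, 13.7 ± 3.87 at D25 and 6.26 ± 1.26 at D32. Kdr thus exceeded the whole list in every library from D10 onwards. Of other vessel-related lists, pericyte and smooth muscle markers summed to 268 CPM at D10 and 21.5 to 27.8 in the libraries of D32, blood and endothelial precursor markers to 22.6 and 11.7, and fibroblast and feeder markers to 200.3 and 77.2; Lmo2, an adaptor of blood and endothelial precursors, was the highest of the precursor list. Horizontal cell markers, led by Prox1 and Onecut2, summed to 4.31 CPM at D0, 40.6 at D7, 158 at D10, 162 at D22 and 167 at D32. Mean Kdr stood at 78.2 CPM at D10 and 330 at D22. Between these 2 days amacrine markers went from 785 to 1016 CPM and photoreceptor markers from 46.8 to 2251. Progenitor markers went from 3493 to 2127, ganglion cell markers from 282 to 102, bipolar markers from 620 to 108 and Müller glia markers from 956 to 678. Pigment epithelium markers went from 1122 to 123. A sum can rest on few genes of its list. From D7 to D18 the bipolar sum went from 874 to 130 CPM, while 4 of its 7 genes rose and 1 fell by edgeR. Of all tested genes, 26.8% rose and 22.23% fell in that span. The part of any cell type in the Kdr level was not tested.

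**Figure D2:**
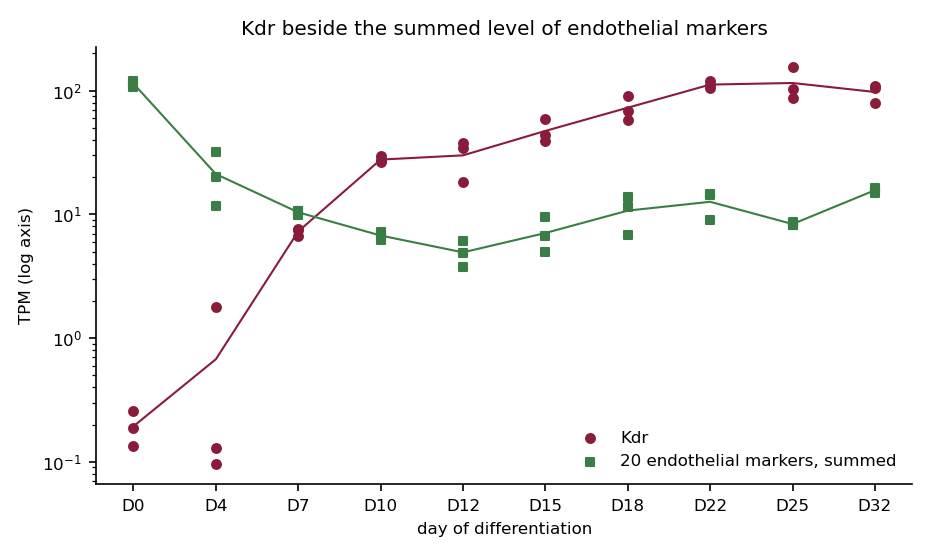
TPM of Kdr (circles) and summed TPM of 20 endothelial markers (squares) in each library by day, on a log axis, with lines through the means of 3 libraries. Kdr lies below the summed markers in every library up to D7 and above them in every library from D10, where the ratio of the 2 is 4.13 or more on average.

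The genes whose log2(CPM + 1) ran most like Kdr over the 30 libraries, among 12389 tested genes with a mean of at least 5 CPM, were Ppp3ca, the catalytic subunit of calcineurin (Pearson r 0.988), Clcn4, a chloride-proton exchanger of endosomes (0.985), Pag1, a membrane adaptor that binds Csk (0.983), Tagln3, a neuronal actin-binding protein (0.983), and Zfp398, a zinc finger protein (0.982). Their means were 2.96 to 25.7 CPM at D0 and 75.5 to 220.6 CPM on their highest day, which was D22, D25 or D32. The points share day and library, and the likeness says nothing of shared function. Nearly all Kdr counts were assigned to Kdr-001, the transcript that encodes the full receptor of 1345 residues: 99.3% ± 0.501 at D18 and 99.0% ± 0.232 at D32, with 2 retained-intron transcripts making up the rest.

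All 6 tested members changed over the 10 days by edgeR's quasi-likelihood F test with Benjamini-Hochberg adjustment over 19897 genes, as did 91.4% of all tested genes. The adjusted p was 6.49e-13 for Vegfa, 1.68e-06 for Vegfb, 1.6e-06 for Vegfc, 5.44e-07 for Pgf, 1.15e-08 for Flt1 and 1.95e-13 for Flt4. The 3 longer spans between D0, D7, D18 and D32 and the 9 steps between neighbouring days were then tested in the same fit. For D7 vs D0, 28.8% of genes were called higher and 29.6% lower; for D18 vs D7, 26.8% and 22.23%; and for D32 vs D18, 20.6% and 23.7%. Of the 6 members, 1 was higher and 2 were lower at D7 than at D0, 2 were higher and 1 lower at D18 than at D7, and 3 were higher and 1 lower at D32 than at D18. The share of genes that changed in a step was 51.9% for D4 vs D0, 42.8% for D7 vs D4, 37.8% for D10 vs D7, 4.41% for D12 vs D10 and 7.41% for D15 vs D12. It was 2.89% for D18 vs D15, 8.2% for D22 vs D18, 2.47% for D25 vs D22 and 23.1% for D32 vs D25. Of 54 such tests on the members, 12 passed, and none of them in the D22 vs D18 or D25 vs D22 step.

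**Figure D3:**
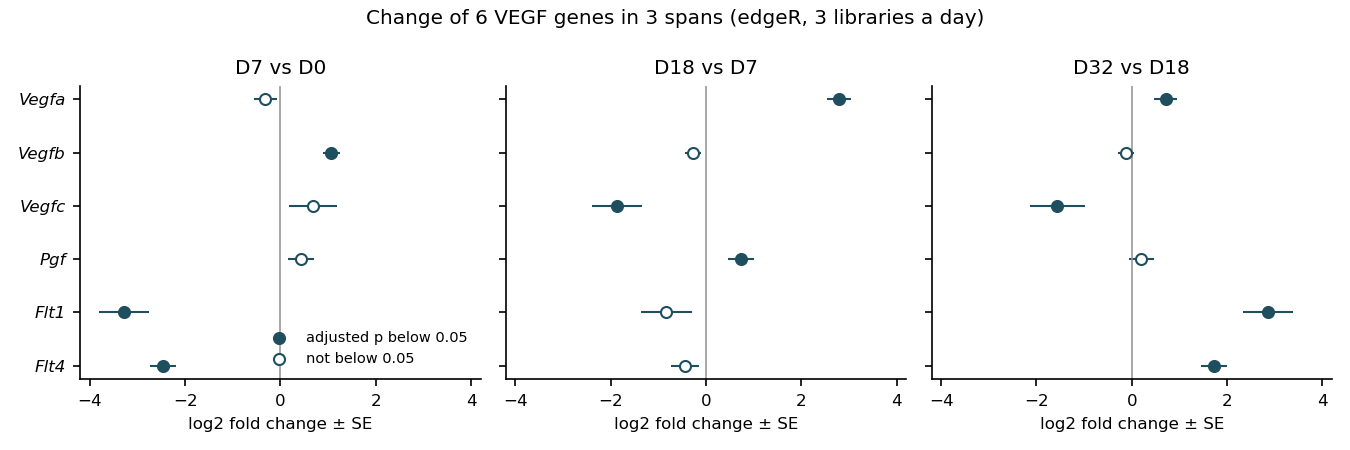
Fitted log2 fold change with its standard error (SE) for 6 VEGF genes in 3 spans, from edgeR with 3 libraries a day; filled points have an adjusted p below 0.05. Vegfa is higher in the later 2 spans, Vegfc lower in both, and Flt1 and Flt4 are lower at D7 than at D0 and higher at D32 than at D18.

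Vegfa, the ligand of Kdr and Flt1, rose between D7 and D10 and was highest at D32. Its libraries held 81.5, 85.1 and 59.1 CPM at D0, 56.5, 33.3 and 92.3 at D4, and 53.1, 54.0 and 74.5 at D7. At D10 they held 392, 384 and 393 CPM, at D12 241, 212 and 139, at D15 454, 305 and 412, and at D18 425, 409 and 422. At D22 the values were 367, 429 and 385 CPM, at D25 466, 383 and 401, and at D32 675, 704 and 677. All libraries from D10 onwards lay above all earlier ones, the 3 libraries of D12 lay below those of D10 and D15, and the 3 of D32 lay above all others. The log2 change was 2.69 ± 0.25 (SE) from D7 to D10 (adjusted p = 1.49e-08 by edgeR) and 2.79 ± 0.25 from D7 to D18 (adjusted p = 1.56e-09); with the library set as a term it was 2.65 and 2.75.

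The drop across the D10 to D12 step, in which the oxygen and medium had been changed, was -0.98 ± 0.24 (adjusted p = 0.0232 by edgeR), and the rise from D12 to D15 was 0.98 ± 0.24 (adjusted p = 0.00994). Both are limited by single libraries: the first gave an adjusted p of 0.0685 without D10 replicate 1, 0.0914 without D10 replicate 3, 0.106 without D12 replicate 3 and 0.0572 with library sizes unscaled, and the second gave 0.0758 without D12 replicate 3, 0.0547 without D15 replicate 1 and 0.0632 with library sizes unscaled. Vegfa was again higher at D32 than at D18 by 0.71 ± 0.24 (adjusted p = 0.0158 by edgeR) and than at D25 by 0.72 ± 0.24 (adjusted p = 0.0277). The latter call was lost without D25 replicate 2 (0.0979), without D25 replicate 3 (0.0863), without any of the D32 libraries (0.0603, 0.0633 and 0.0616 for replicates 1 to 3) and with library sizes unscaled (0.0693). D7 did not differ from D0 by the test (log2 -0.31 ± 0.24, adjusted p = 0.265).

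Vegfa makes several proteins from 1 gene by skipping or keeping exons 6 and 7, which encode the stretches that bind heparan sulfate and, for exon 7, neuropilin-1. The gene lies on the minus strand at chr17:46016993-46032377 (GRCm38), with exon 6 at chr17:46022277-46022348 (72 bases) and exon 7 at chr17:46020991-46021122 (132 bases). The coding bases from exon 5 to the end of exon 8, read from the GENCODE M21 transcripts, show the difference; capitals mark exon 7 in Vegfa-001 and exon 6 in Vegfa-003, and Vegfa-008 has neither.
Vegfa-008: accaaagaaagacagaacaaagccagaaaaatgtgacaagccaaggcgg
Vegfa-001: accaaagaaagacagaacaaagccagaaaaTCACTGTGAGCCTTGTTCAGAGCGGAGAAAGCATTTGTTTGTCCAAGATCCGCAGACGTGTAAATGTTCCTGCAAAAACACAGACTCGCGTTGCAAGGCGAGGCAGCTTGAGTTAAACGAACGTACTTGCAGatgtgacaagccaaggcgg
Vegfa-003: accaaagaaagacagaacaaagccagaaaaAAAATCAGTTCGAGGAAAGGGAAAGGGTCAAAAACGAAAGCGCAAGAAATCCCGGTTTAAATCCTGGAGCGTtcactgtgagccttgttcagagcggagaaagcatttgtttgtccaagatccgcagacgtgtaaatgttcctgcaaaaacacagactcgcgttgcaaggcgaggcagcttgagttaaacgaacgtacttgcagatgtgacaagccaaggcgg
The form without either stretch is known to diffuse freely, and the form with both is known to stay bound to the matrix.

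Among the coding Vegfa transcripts the form with exon 7 alone took the largest share of counts on every day. These shares are not corrected for length: Vegfa-001 has 3451 bases, Vegfa-008 2765 and Vegfa-009 513. Per length, Vegfa-001 would thus hold a smaller share and Vegfa-009 a larger one. It held 66.9%, 54.2% and 58.5% of coding Vegfa counts at D0, 67.8%, 73.3% and 65.0% at D7, 76.6%, 78.6% and 81.7% at D10, and 80.0%, 83.4% and 81.1% at D32. The forms with neither exon (Vegfa-008 and Vegfa-201) held 25.296% ± 2.95 at D0, 29.7% ± 4.97 at D7, 19.5% ± 2.44 at D10 and 16.9% ± 2.29 at D32. The forms with both exons held 1.76%, 11.4% and 11.01% at D0, were listed at 0 in all 3 libraries of D7 and stayed at or below 0.825% in each library after that; the form with exon 6 alone (Vegfa-009) held 6.80% ± 1.70 at D0, 1.61% ± 0.767 at D7 and 1.40% ± 0.510 at D32. Transcript shares of Vegfa changed between D7 and D0 by limma's diffSplice F test (adjusted p = 0.000147 over 10808 genes, of which 20.7% changed). They did not pass between D18 and D7 (adjusted p = 0.197, background 10.4%) or between D32 and D18 (adjusted p = 0.429, background 13.5%). The test covers all 10 tested transcripts of Vegfa together, among them transcripts without a coding sequence, which held 12.8% ± 3.72 of all Vegfa counts at D0 and 23.5% ± 3.72 at D7, and it does not say which transcript differed. The deposited length of Vegfa-201 (3324 bases) is not that of GENCODE M21 (975), and kallisto shares reads between forms that overlap.

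**Figure D4:**
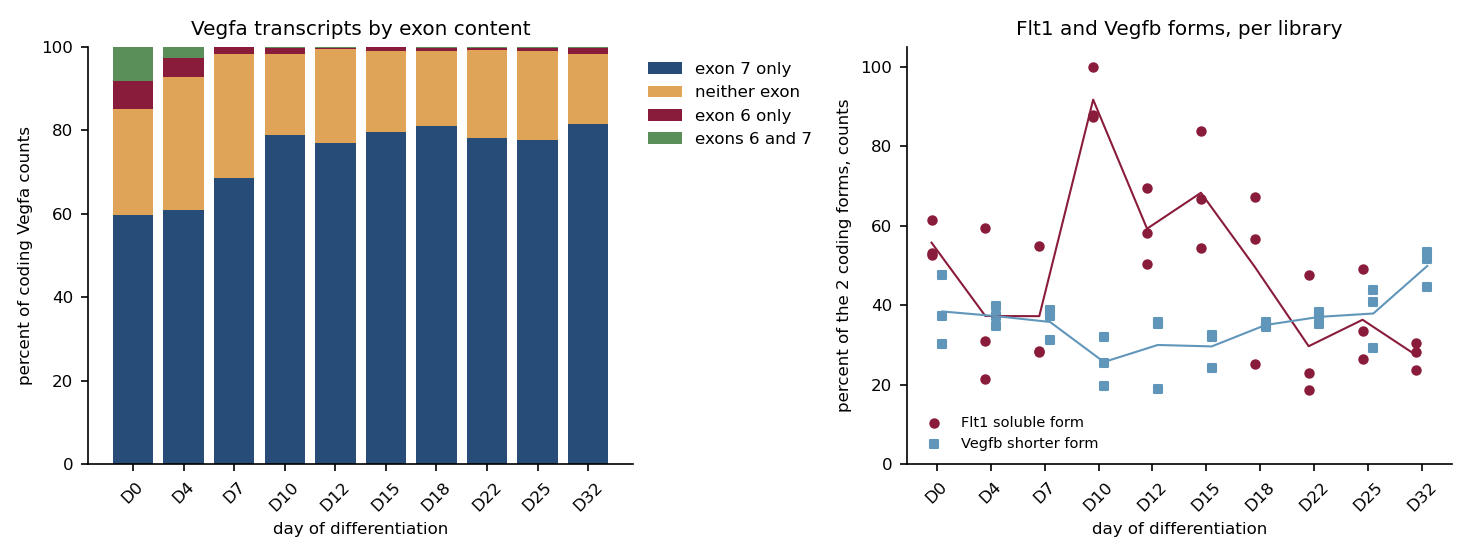
Left, mean percent of coding Vegfa counts by day for transcripts with exon 7 only, neither exon, exon 6 only or both exons (3 libraries a day). Right, percent of the 2 coding forms of Flt1 that is the soluble form and of Vegfb that is the shorter form, a point per library with a line through the means. The Vegfa form with exon 7 alone lies at 59.8% at D0 and 81.5% at D32; the Flt1 points scatter widely from D4 to D25, where few counts lie behind them.

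Hypoxia targets, a list of 21 genes that HIF factors are known to induce, were compared in the same spans as Vegfa. Their summed level was 9892 ± 1682 CPM at D0, 17397 ± 6019 at D4, 5851 ± 586 at D7 and 11238 ± 635 at D18. Mean Vegfa stood at 75.2, 60.7, 60.5 and 419 CPM on these days. The list was thus highest at D4, a day that the spans skip, and mean Vegfa was not higher there than at D0. From D7 to D18, 19 of 21 rose, none fell, and the list's median log2 change was 1.31 beside 0.05 over all tested genes. Ndrg1, a stress-response gene, rose by 5.92 ± 0.39 (adjusted p = 6.2e-12 by edgeR) from 3.27 to 198 CPM, Adm, the vasodilator adrenomedullin, by 4.71 ± 0.98 (adjusted p = 0.00027), Bnip3, a mitophagy receptor, by 3.80 ± 0.44 (adjusted p = 1.1e-07) and Ankrd37 by 3.49 ± 0.56 (adjusted p = 1.1e-05). Pgk1, a glycolytic enzyme and the highest gene of the list that did not pass, stood at 0.49 (adjusted p = 0.071). From D0 to D7, 11 of the 21 fell and 2 rose (median -0.86), with Ndrg1 at -3.95, Adm at -3.69, Hk2, a glycolytic enzyme, at -2.83 and Bnip3 at -2.43, while Ldha did not pass (-0.05). From D18 to D32, 4 rose and 3 fell (median 0.24), Ndrg1 by 1.76 and Car9, a carbonic anhydrase, by -1.49. Without D18 replicate 1 only 1 rose in that last span, and without D32 replicate 2 there were 2. Slc2a1, a glucose transporter, stood at 399 CPM at D7, 1593 at D10 and 1041 at D12, and so was lower at D12 than at D10 as Vegfa was. This gene was chosen after its values were seen. The whole list summed to 10226 to 12207 CPM in the libraries of D10, 7777 to 8428 at D12 and 8266 to 13148 at D15. The D12 sums thus lay below those of D10 and overlapped those of D15. Mean Vegfa stood at 390, 197 and 390 CPM on these days. A link between the list and Vegfa was not tested. Of 10 HIF factors and their regulators 5 rose and 4 fell from D0 to D7, 5 rose and 1 fell from D7 to D18, and 4 rose and 3 fell from D18 to D32. For both lists, the shares over all tested genes were 28.8% higher and 29.6% lower in the first span, 26.8% and 22.23% in the second, and 20.6% and 23.7% in the third. Hif1a rose from D0 to D7 by 0.65 (adjusted p = 0.017 by edgeR) and from D18 to D32 by 0.82 (adjusted p = 0.0048), and did not pass from D7 to D18 (0.39, adjusted p = 0.17); it also differed between the library sets (0.54, adjusted p = 0.000533). Egln1 and Egln3, oxygen-sensing prolyl hydroxylases, rose from D7 to D18 by 2.17 and 2.08, as did Hif3a by 3.44 (adjusted p = 9e-08, 0.00026 and 1.6e-08). Epas1, which encodes HIF2α, stood at 48.0 CPM at D0, 1.96 at D7, 4.77 at D18 and 48.0 at D32, a fall of -4.61 ± 0.34 (adjusted p = 2.4e-11 by edgeR) and rises of 1.28 ± 0.32 and 3.33 ± 0.31 (adjusted p = 0.0019 and 3.3e-09). HIF proteins are regulated by stability, which these RNA levels do not measure. The genes most like Vegfa over the 30 libraries were Cntnap1, an axonal junction protein (Pearson r 0.963), the long RNA A330074K22Rik (0.962), Cul9 (0.961), Taz (0.958) and Diras2 (0.955), all highest at D32.

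Promoter windows of RefSeq (GRCm38.p6; 250 bases before to 50 after a start) were available for all 7 genes. The windows of Kdr and of the upstream Vegfa start are shown because these 2 genes had the highest TPM of the family from D18 onwards; capitals mark GGGCGG on either strand, the core of the box that Sp1 binds.
Kdr, chr5:75978406-75978705, minus strand: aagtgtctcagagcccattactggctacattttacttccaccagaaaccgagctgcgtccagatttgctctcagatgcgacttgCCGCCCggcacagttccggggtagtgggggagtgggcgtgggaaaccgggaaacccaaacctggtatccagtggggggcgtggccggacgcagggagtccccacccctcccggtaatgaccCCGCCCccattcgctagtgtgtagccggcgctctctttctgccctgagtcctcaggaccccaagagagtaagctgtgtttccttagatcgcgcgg
Vegfa, chr17:46032328-46032627, minus strand: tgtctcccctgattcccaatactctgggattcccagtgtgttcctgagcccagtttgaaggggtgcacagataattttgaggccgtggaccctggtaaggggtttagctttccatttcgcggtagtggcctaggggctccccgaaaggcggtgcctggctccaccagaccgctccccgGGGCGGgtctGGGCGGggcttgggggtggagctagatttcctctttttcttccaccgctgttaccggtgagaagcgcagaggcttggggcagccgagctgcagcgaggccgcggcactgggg
Each window holds GGGCGG 2 times, a motif found in 35.7% of 32851 windows in the table, and GC content is 60.7% for Kdr and 62.0% for Vegfa beside a median of 52.7%. Neither trait is particular to these 2 genes. GGGCGG also stands 4 times in the window of Vegfb, 3 times in those of Flt1 and Flt4, and 2 times in those of Vegfc and the upstream Pgf start. GC content of these windows is 66.0% to 75.3%. ACGTG, a form of the core that HIF binds, is in neither the Kdr window nor that of the upstream Vegfa start. It stands once in the window of a second Vegfa start at chr17:46025114-46025413, against 19.6% of all windows. GCGTG, another form of that core, was not counted and can be read in the Kdr window. TAATCC, the core that Otx2 and Crx bind, is in neither, against 7.06% of all windows. Both strands were searched and the motifs do not overlap here; these are descriptions of the letters in the windows only.

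Vegfb, a ligand of Flt1, had its lowest values in the stem cells. Its libraries held 18.25, 18.9 and 18.101 CPM at D0, 38.0, 52.0 and 48.5 at D4, and 40.6, 39.8 and 35.5 at D7, so the D0 libraries lay below all of the other 2 days. They held 46.1, 39.0 and 43.991 at D10, 29.6, 23.2 and 35.4 at D12, 44.5, 31.3 and 40.4 at D15, and 29.1, 26.4 and 40.4 at D18. The last 3 days gave 21.8, 25.223 and 28.6 at D22, 24.9, 24.4 and 30.1 at D25, and 31.0, 28.9 and 27.9 at D32. The rise lay between D0 and D4 (log2 1.33 ± 0.17, adjusted p = 5.09e-07 by edgeR) and held to D7 (1.07 ± 0.17, adjusted p = 6.97e-06). Later steps did not pass, the nearest being D12 vs D10 (-0.55 ± 0.17, adjusted p = 0.0582), and D18 vs D7 did not pass either (-0.27 ± 0.17, adjusted p = 0.183), although it did with the library set as a term (-0.47, adjusted p = 0.0155) and without D18 replicate 3 (-0.48, adjusted p = 0.0303). Obsl1 (Pearson r 0.890), Acvr2b, an activin receptor (0.888), and Rabl6 (0.882) were most like it.

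Vegfb has 2 coding forms, a longer soluble one of 207 codons before the stop (Vegfb-001) and a shorter heparin-binding one of 188 (Vegfb-002), which begin exon 6 at different places. The gene lies at chr19:6982473-6987651 on the minus strand (GRCm38), and the 101 bases that only the longer form keeps, at chr19:6985496-6985596, are in capitals between bases of the exon before and of the shared part.
Vegfb-001: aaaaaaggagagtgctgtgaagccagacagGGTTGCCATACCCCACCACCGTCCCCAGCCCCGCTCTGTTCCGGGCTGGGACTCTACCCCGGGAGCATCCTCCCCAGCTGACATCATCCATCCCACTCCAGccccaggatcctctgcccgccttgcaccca
Vegfb-002: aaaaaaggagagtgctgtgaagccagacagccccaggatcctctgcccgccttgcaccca
The shorter form took 30.3%, 37.4% and 47.7% of the counts of both at D0, 35.8%, 34.5% and 34.9% at D18 and 53.4%, 51.6% and 44.7% at D32, so that the D32 libraries lay above those of D18. The test of transcript shares did not pass in any span (adjusted p = 0.384, 0.628 and 0.108 for D0 to D7, for D7 to D18 and for D18 to D32 by limma's diffSplice).

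Vegfc, the ligand of Flt4, was below 1 CPM in the later organoids. Its libraries held 5.00, 3.5995 and 6.49 CPM at D0, 1.54, 2.29 and 17.9 at D4, and 8.43, 8.00 and 7.78 at D7. They held 8.19, 6.89 and 6.89 at D10, 2.74, 4.96 and 4.26 at D12, 4.92, 3.41 and 3.84 at D15, and 2.14, 1.98 and 2.55 at D18. From D22 every library was below 1 CPM: 0.864, 0.612 and 0.901 at D22, 0.982, 0.696 and 0.819 at D25, and 0.872, 0.468 and 0.889 at D32. Replicate 3 of D4 stands apart here as it does for Kdr. Vegfc fell from D7 to D18 by 1.87 on the log2 scale (SE 0.53, adjusted p = 0.00477 by edgeR; -1.96 with the library set as a term) and from D18 to D32 by 1.56 (SE 0.58, adjusted p = 0.0303). The second call rests on little: it was lost without D18 replicate 1 (0.0509), D18 replicate 3 (0.0744), D32 replicate 1 (0.0529), D32 replicate 2 (0.119) or D32 replicate 3 (0.0518), with library sizes unscaled (0.0686) and by limma on log2(CPM + 1) (0.0741), and the lowest library held 9.86 estimated counts. D7 vs D0 did not pass (0.69 ± 0.51, adjusted p = 0.252). Bmp4 (Pearson r 0.951), a morphogen of the dorsal retina, Tram2 (0.936) and Tead1, a factor of the Hippo pathway (0.919), were most like Vegfc, which lies at chr8:54077532-54186454 on the plus strand.

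Vegfc is secreted as a precursor that Adamts3 cleaves with the help of Ccbe1. Between D0 and D7, 28.8% of all tested genes rose and 29.6% fell. Of 5 processing genes 4 rose and 1 fell from D0 to D7: Adamts3 by 5.63 ± 0.54 (adjusted p = 2.7e-09 by edgeR), the proprotein convertases Pcsk5 by 3.52, Pcsk7 by 0.93 and Furin by 0.80 (adjusted p = 1.3e-06, 3e-05 and 0.0046), and Ccbe1 by -1.61 (adjusted p = 0.002). From D7 to D18 Adamts3 fell by 2.65 (adjusted p = 1.3e-05) and Pcsk5 by 1.55 (adjusted p = 0.0056), and Ccbe1, Furin and Pcsk7 did not pass (-0.42, -0.16 and -0.28). From D18 to D32 Adamts3 rose by 3.94 ± 0.45 (adjusted p = 7e-08 by edgeR), to 47.5 CPM, while Vegfc itself was below 1 CPM. The other ligand of Flt4, Vegfd, is named Figf in the tables; it stood at 4.18, 5.14 and 4.51 CPM at D0 and 1.21, 0.887 and 1.09 at D7, a fall of 2.14 on the log2 scale (adjusted p = 0.00069 by edgeR), and did not pass in the later spans.

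Pgf, placental growth factor, a ligand of Flt1, was low throughout and highest at D25. Its libraries held 2.25, 3.86 and 1.61 CPM at D0, 2.90, 1.42 and 2.54 at D4, 3.50, 3.81 and 3.12 at D7, and 4.48, 3.42 and 3.65 at D10. They held 2.83, 2.64 and 3.06 at D12, 3.83, 2.71 and 3.31 at D15, 5.75, 5.58 and 6.13 at D18, and 5.08, 8.06 and 6.72 at D22. The highest day was D25 with 8.89, 8.50 and 7.86, followed by 7.75, 6.69 and 5.62 at D32. The 3 libraries of D18 lay above all libraries of D0 to D15. D18 exceeded D7 by 0.73 ± 0.26 on the log2 scale (adjusted p = 0.0232 by edgeR), a call that was lost without D7 replicate 1 (0.0533), D7 replicate 3 (0.102) or D18 replicate 3 (0.0617) and with no filter on low counts (0.0652). D7 vs D0 (0.44 ± 0.27, adjusted p = 0.171) and D32 vs D18 (0.20 ± 0.26, adjusted p = 0.553) did not pass, but the former did without D0 replicate 2 (0.87, adjusted p = 0.0108). Peli3 (Pearson r 0.912), Pcdhac2, a protocadherin (0.912), and Dmxl2 (0.907) were most like it. Pgf has 1 transcript in the tables and lies at chr12:85166639-85177296 on the minus strand.

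Flt1, the tight-binding receptor of Vegfa, Vegfb and Pgf, was highest in the iPSC cultures, scarce in the retina of D7 to D25, and present again at D32. Its libraries held 12.4, 16.4 and 21.3 CPM at D0, 4.02, 4.87 and 4.43 at D4, and 1.29, 2.68 and 1.11 at D7. From D10 to D25 the 18 libraries lay between 0.524 and 3.41 CPM, with means of 0.944 ± 0.380 at D18 and 1.07 ± 0.296 at D25. At D32 they held 5.82, 8.07 and 7.11 CPM, above all libraries of D4 to D25 and below all of D0. Flt1 fell by 1.92 on the log2 scale from D0 to D4 (SE 0.48, adjusted p = 0.00171 by edgeR) and by 3.28 from D0 to D7 (SE 0.52, adjusted p = 5.95e-06). It rose by 2.69 ± 0.52 from D25 to D32 (adjusted p = 0.000398) and by 2.86 ± 0.53 from D18 to D32 (adjusted p = 7.53e-05; 2.63 with the library set as a term). D18 vs D7 did not pass (-0.84 ± 0.53, adjusted p = 0.201) but did with the library set as a term (-1.30, adjusted p = 0.0491). The D4 to D7 step (-1.37 ± 0.50, adjusted p = 0.0308) was lost without D4 replicate 1 (0.0526), D4 replicate 2 (0.0759), D7 replicate 1 (0.112) or D7 replicate 3 (0.116), with library sizes unscaled (-0.94, adjusted p = 0.142) and with the library set as a term (-0.67, adjusted p = 0.375). Foxo1 (Pearson r 0.892), Anxa1 (0.892), Las1l (0.888), Esrrb, a pluripotency factor (0.876), and Mpp6 (0.873) were most like Flt1, all highest at D0.

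Flt1 also makes a soluble decoy, which keeps the ligand-binding part and ends inside the intron after exon 13 in place of crossing the membrane. The gene lies at chr5:147561604-147726011 on the minus strand (GRCm38). Capitals mark the 92 coding bases that the soluble transcript Flt1-002 reads from that intron, chr5:147639133-147639224, after 30 bases of exon 13; the full-length Flt1-001 joins exon 14 there.
Flt1-002: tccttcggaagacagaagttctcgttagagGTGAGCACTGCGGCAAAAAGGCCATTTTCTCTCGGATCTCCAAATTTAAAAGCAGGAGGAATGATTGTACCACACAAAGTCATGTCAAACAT
Flt1-001: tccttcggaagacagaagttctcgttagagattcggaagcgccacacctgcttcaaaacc
Of the counts of both forms, the soluble one took 53.1%, 61.4% and 52.8% at D0, 28.5%, 28.3% and 55.0% at D7, and 30.4%, 28.2% and 23.6% at D32, so D32 lay below D0 in all 3 libraries. Transcript shares of Flt1 differed between D7 and D0 (adjusted p = 0.00398 by limma's diffSplice) and between D32 and D18 (adjusted p = 0.00677) but rest on few counts at D7 and D18, where 17.1 and 19.7 estimated counts of the soluble form stood over 3 libraries, and both calls were lost with a minimum transcript count of 30 (adjusted p = 0.459 and 0.499) and by edgeR's diffSpliceDGE (adjusted p = 0.138 and 0.2004), the second also without D18 replicate 1 (0.0648). D7 and D18 also had 25.5% ± 5.06 and 24.3% ± 12.0 of Flt1 counts on the non-coding Flt1-006, beside 2.45% ± 0.435 at D0.

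Flt4, the receptor of Vegfc, had a similar course at a lower level. Its libraries held 4.64, 6.77 and 6.09 CPM at D0, 3.88, 5.26 and 3.06 at D4, and 0.857, 1.05 and 1.18 at D7. The 18 libraries of D10 to D25 lay between 0.154 and 0.908 CPM, the lowest of them at D12, where 2.99 estimated counts was the smallest value of any member. At D32 the libraries held 2.69, 2.64 and 2.34 CPM, above all of D7 to D25. Flt4 fell by 2.47 on the log2 scale from D0 to D7 (SE 0.28, adjusted p = 3.49e-08 by edgeR), of which 1.94 lay between D4 and D7 (SE 0.28, adjusted p = 5.74e-06), and rose by 1.62 ± 0.28 from D25 to D32 (adjusted p = 0.000107) and by 1.73 ± 0.28 from D18 to D32 (adjusted p = 1.63e-05; 1.71 with the library set as a term). Steps at D12 vs D10 (-1.24, adjusted p = 0.0487) and D18 vs D15 (1.19, adjusted p = 0.0456) were each lost in 10 of 17 alternatives, among them leaving out any 1 of their 6 libraries (highest adjusted p = 0.227 and 0.289). Rarg (Pearson r 0.949), Ddah1 (0.946) and Anxa7 (0.938), all highest at D0, were most like Flt4, which lies at chr11:49609263-49652739 on the plus strand.

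Markers of vessel cells are given beside these receptors. At D0 the fibroblast and feeder markers summed to 977 ± 449 CPM, against 140 ± 7.12 at D7. Of the endothelial markers, 10 of 15 tested fell from D0 to D7, beside 29.6% of all tested genes. From D18 to D32, 3 of 15 rose, a share close to the 20.6% of all tested genes. They were Plvap, a protein of fenestrated endothelium, by 2.91 to 4.00 CPM (adjusted p = 2.9e-07 by edgeR), Ramp2, part of the adrenomedullin receptor, by 2.34 (adjusted p = 0.00074), and Pecam1 by 1.03 (adjusted p = 0.013) to 1.42 CPM. Cldn5 fell, Tie1 and Tek did not pass (0.01 and 0.24), and Cdh5 was listed at 0 in all 3 libraries of D32. The summed level of the 20 markers was 7.17 to 11.9 CPM at D18 and 11.5 to 12.7 at D32, which overlap, and 7.70 to 8.79 at D25, which lies below D32. On the TPM scale the sum was 6.76 to 13.9 at D18, 8.16 to 8.61 at D25 and 14.8 to 16.5 at D32, so D32 lay above both days, as Flt1 and Flt4 did. Astrocyte markers summed to 13.7 ± 3.78 CPM at D18 and 48.8 ± 9.53 at D32, with Gfap higher by 4.83 (adjusted p = 6.9e-07 by edgeR). The part of these cells in the levels of Flt1 and Flt4 was not tested.

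Put on the TPM scale, the makeup of the family shifted between D4 and D10. Kdr made up 2.87% ± 0.845 of the TPM of the 3 receptors at D0, 19.9% ± 22.22 at D4, 88.9% ± 2.71 at D7 and between 95.0% and 99.5% in every library from D10 onwards except 1 library of D12 at 93.6%. At D0 Flt1 stood at 5.21 TPM, Flt4 at 1.44 and Kdr at 0.194, and at D22 Kdr stood at 112 TPM, Flt1 at 0.478 and Flt4 at 0.248. Among the 4 ligands Vegfa took 70.1% ± 4.15 at D0, 49.0% ± 6.23 at D7, 85.0% ± 0.938 at D10 and 93.5% ± 0.478 at D32, and Vegfb was the second ligand in the mean TPM of every day. At D4 Vegfb stood above Vegfa in replicate 2 alone, the library with the lowest TMM factor (28.4 against 13.5 TPM), and below it in replicate 1 (39.0 against 41.9) and replicate 3 (62.0 against 87.0). The mean share at D4 was nonetheless higher for Vegfb (49.8% ± 14.5) than for Vegfa (44.4% ± 11.6), the reverse of the order by mean TPM. The ratio of Kdr to Vegfa TPM was 0.00292 at D0, 0.111 ± 0.0261 at D7, 0.0560 ± 0.00514 at D10, 0.235 ± 0.0284 at D22 and 0.0997 ± 0.0132 at D32. The summed TPM of all Vegfa transcripts thus exceeded that of Kdr on every day. A gene's TPM here includes its transcripts without a coding sequence, which held 12.8% of Vegfa counts at D0 and 28.3% at D10. At 463 to 874 bases, those of Vegfa weigh more in TPM than in counts. Ratios and ligand shares from coding transcripts alone were not computed. Since Kdr was chosen for its level, its shares are a description.

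**Figure D5:**
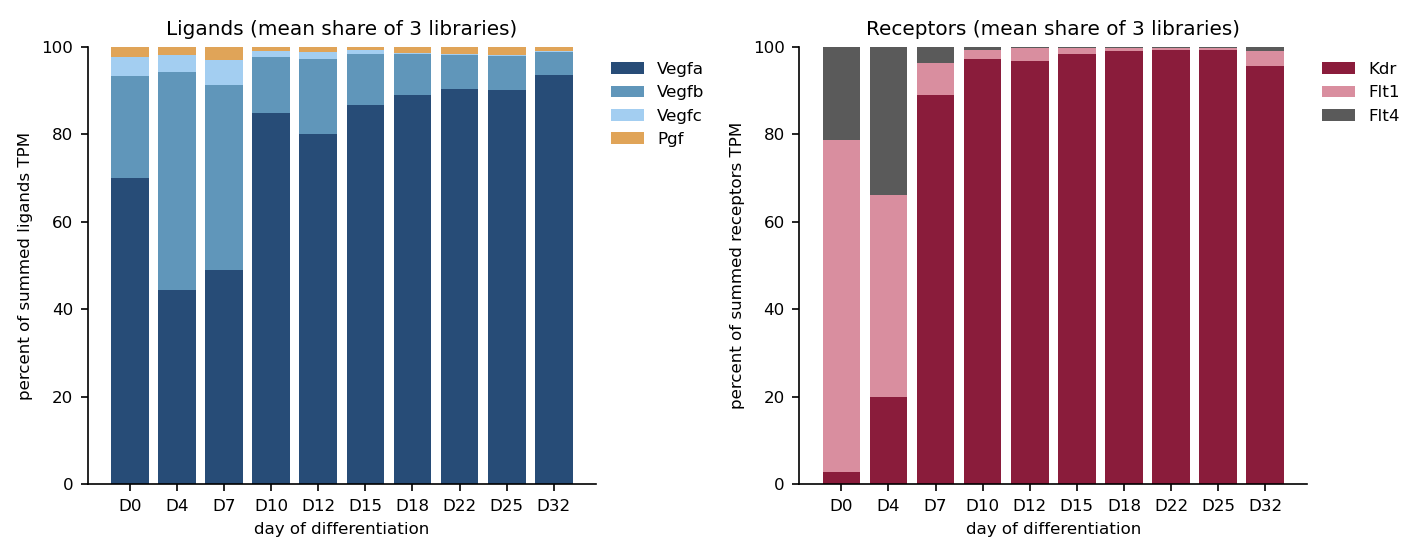
Mean share of each VEGF ligand in the summed TPM of the 4 ligands (left) and of each receptor in that of the 3 receptors (right) by day, 3 libraries a day. Vegfa is at 49.0% at D7 and 85.0% at D10, and Kdr is at 2.87% at D0 and 88.9% at D7. The TPM of a gene sums all its transcripts, with or without a coding sequence.

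Co-receptors and partners of the VEGF receptors moved both ways. Of 13 genes 5 rose and 5 fell from D0 to D7 (median -0.19 beside 0 over all genes), 7 rose and 4 fell from D7 to D18 (0.60 beside 0.05), and 3 rose and 3 fell from D18 to D32 (0.01 beside -0.01). The shares over all tested genes were 28.8% higher and 29.6% lower, then 26.8% and 22.23%, then 20.6% and 23.7%. Without D7 replicate 1 the first span had 3 that fell, with library sizes unscaled 2; without D7 replicate 1, D7 replicate 2 or D18 replicate 3 the second had 4 that rose. Nrp1, the neuropilin that holds the exon 7 form of Vegfa together with Kdr, fell from D0 to D7 by 1.66 (SE 0.59, adjusted p = 0.018 by edgeR) and rose from D7 to D18 by 1.54 (adjusted p = 0.032), from 5.40 to 15.7 CPM. Nrp2, which favours Vegfc, did not pass at D7 vs D0 and fell from D7 to D18 by 1.75 (adjusted p = 0.00056), from 61.5 to 18.25 CPM. Plxnd1, a semaphorin receptor of vessels, rose by 2.39 ± 0.22 (adjusted p = 2.6e-09) and Ephb4, a venous marker, fell by 1.61 (adjusted p = 1e-06) from D7 to D18 and by 2.01 (adjusted p = 8e-08) from D18 to D32. Efnb2, its arterial ligand, was higher at D7 than at D0 by 3.09 ± 0.32 (adjusted p = 8.9e-09) and lower at D32 than at D18 (log2 -1.37, adjusted p = 0.00046). The adhesion receptors Cd44 and Itgb3 fell from D0 to D7 by 5.40 and 3.47 (adjusted p = 5.8e-12 and 2.6e-08), and Itgb3 was lower again at D18 (log2 -2.18, adjusted p = 0.00018) and rose to D32 by 2.32 (adjusted p = 8.6e-05).

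Several class 3 semaphorins compete with VEGF for neuropilins, while Sema3e, also in the list, can act without them. Over all tested genes, 28.8% rose and 29.6% fell from D0 to D7, and 26.8% rose and 22.23% fell from D7 to D18. From D0 to D7 4 of 7 rose and none fell (median 1.41), with Sema3a up by 4.26 ± 0.40 (adjusted p = 1.6e-09 by edgeR), from 5.22 to 99.9 CPM, Sema3d by 2.42, Sema3f by 1.99 and Sema3c by 1.41 (adjusted p = 0.00074, 1.1e-10 and 0.0092). From D7 to D18 2 rose and 4 fell (median -1.48): Sema3c by -3.19 (adjusted p = 7e-06), Sema3a by -2.86 (5.4e-07), Sema3e by -2.07 (0.001), and Sema3g rose by 2.72 (1.4e-05). From D18 to D32 Sema3a and Sema3g were lower (-1.64 and -2.15, adjusted p = 0.00083 and 0.00015) and Sema3e higher (2.50, adjusted p = 0.00017). Sema3a also differed between the library sets (log2 0.33, adjusted p = 0.0398).

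Genes that carry the receptor signal inside the cell were split as well. Of 21 tested, 10 rose and 9 fell from D0 to D7, 6 rose and 10 fell from D7 to D18, and 4 rose and 11 fell from D18 to D32 (medians -0.11, -0.26 and -0.38). Among all tested genes, 28.8% rose and 29.6% fell in the first span, 26.8% and 22.23% in the second, and 20.6% and 23.7% in the third (medians 0, 0.05 and -0.01). The adaptor Gab1 fell from D0 to D7 by 3.46 (adjusted p = 2.3e-17 by edgeR), and the kinase Prkcb rose then by 2.90 (1.6e-09) and from D18 to D32 by 2.10 (1.4e-07). Prkca rose from D7 to D18 by 2.47 ± 0.30 (adjusted p = 2.1e-07) and from D18 to D32 by 1.83 ± 0.28 (7.5e-06), and Akt1 fell from D18 to D32 by 1.16 (1.3e-05). Sphk1, a sphingosine kinase, rose from D0 to D7 by 2.87 and fell to D18 by 1.32 (adjusted p = 7.2e-06 and 0.011). With library sizes unscaled, 4 in place of 10 signalling genes were lower at D18 than at D7, and 6 were without D18 replicate 3.

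Genes that VEGF induces in endothelium were measured in the same libraries. Of 7 tested, 3 rose and 3 fell from D0 to D7, 4 rose and none fell from D7 to D18 (median 2.12), and 3 rose and 3 fell from D18 to D32. Among all tested genes, 28.8% rose and 29.6% fell in the first span, 26.8% and 22.23% in the second, and 20.6% and 23.7% in the third. Dll4, the Notch ligand of vessel tip cells, which retinal neuron precursors also express, rose by 5.34 ± 0.41 from D7 to D18 (adjusted p = 8.9e-11 by edgeR) and fell by 3.68 to D32 (adjusted p = 7.4e-09), and Nrarp, a Notch target, went with it (2.63 and -2.94, adjusted p = 0.004 and 0.002). Nos3, endothelial nitric oxide synthase, stood at 5.38 CPM at D0, 0.415 at D7, 2.70 at D18 and 13.1 at D32, with log2 changes of -3.67, 2.68 and 2.27 (adjusted p = 4.4e-10, 1.7e-07 and 1.5e-07). Nr4a1, an immediate early receptor, was lower at D7 than at D0 (-4.65) and higher in both later spans (2.12 and 1.98, adjusted p = 3.7e-05 and 4.1e-05). Cxcr4, a chemokine receptor, was higher at D7 than at D0 (5.12) and lower at D32 than at D18 (-1.66, adjusted p = 8.4e-11 and 0.00016). Rcan1, an inhibitor of calcineurin, was the highest gene of the list that did not pass from D0 to D7 or from D7 to D18 (-0.01 and 0.03).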

How the data were processed

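Per the submitters' processing notes, the tools named were Trimmomatic 0.36, kallisto 0.42.4 and edgeR, with build GRCm38.p4; how transcripts were joined into genes is not given in the sources used here. The authors deposited estimated counts per gene and per transcript, and a signal table of CPM after TMM scaling whose library totals run from 843899 to 1918405. Another 9 columns, 3 in each table, match no listed sample and were not used. Libraries held 16.77 to 24.53 M estimated counts, so genes below about 1 CPM rest on few counts.

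Estimated gene counts were rounded, filtered with filterByExpr (minimum count 10, minimum total 15) and fitted over all 30 libraries in edgeR 4.0.16 (R 4.3.3) with TMM scaling and quasi-likelihood tests, Benjamini-Hochberg adjusted over 19897 genes at 0.05. TPM is the transcript estimate over annotated length, scaled to the same total per library. Transcript shares were tested with limma 3.58.1 diffSplice, which replaced edgeR's diffSpliceDGE after the latter made many false calls on simulated data. Alternatives included DESeq2 1.42.0, limma on log2(CPM + 1) and log2(CPM + 0.1), other filters and scalings, the library set as a term and leaving out libraries.

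Members and gene lists were chosen with earlier results of these data known. Named list genes are the 4 called genes with the largest change in a span and the highest gene that did not pass, and other genes were named after their values were seen. Whether counting used strand is not given in the sources used here; no annotated gene of GENCODE M21 overlaps a member.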

Additional observations from a re-analysis of the deposited data

How the results depend on the processing

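Of 370 alternatives over the 22 called results of the members (10 spans and 12 of 54 steps), 320 kept the call, 50 lost it and 0 reversed. The difference of Vegfb between D32 and D18, which did not pass, turned to 0.0715 without D18 replicate 3, and ran from -0.253 to 0.0715 over the single libraries left out. With only the 6 libraries of the compared days, 2 members were higher at D7 than at D0 and 2 HIF factors lower at D18 than at D7. With library sizes unscaled, 2 co-receptors were lower at D7 than at D0, 4 signalling genes and 3 endothelial markers lower at D18 than at D7, and 0 members lower at D32 than at D18; limma on log2(CPM + 1) also gave 0, and on log2(CPM + 0.1) 8 endothelial markers lower at D18 than at D7. With no filter 1 member was higher at D18 than at D7, and with the library set as a term 3 were lower. DESeq2 and the 6-library fit gave 2 semaphorins higher at D32 than at D18. Transcript shares changed in 1 member between D7 and D0 and in 0 between D32 and D18, both with edgeR's diffSpliceDGE and with a minimum transcript count of 30.

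Leaving out 1 library at a time gave 1 to 2 members and 1 to 2 hypoxia targets higher, and 3 to 5 co-receptors lower, at D7 than at D0. For D18 vs D7 it gave 1 to 2 members higher, 1 to 2 lower, 4 to 7 co-receptors higher, 6 to 10 signalling genes lower and 3 to 5 endothelial markers lower. For D32 vs D18 it gave 0 to 1 members lower, 1 to 5 hypoxia targets higher, 1 to 2 semaphorins higher and 0 to 1 members with changed transcript shares, and 0 to 1 members differed between library sets. The deviations of libraries with the same replicate number had a median correlation of 0.0393 (-0.293 to 0.342) and those with different numbers -0.0269, so not every pair deviated together, although between D10 and D25 the number goes with the library set. With the replicate block, 11702 genes changed between D7 and D0, against 11622 without it, and no call of a member changed.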

Other observations

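Other angiogenic factors were also measured. Of 12, 1 rose and 7 fell from D0 to D7 (median log2 change -1.98 beside 0 over all tested genes), 1 rose and 4 fell from D7 to D18 (-0.44 beside 0.05), and 4 rose and 2 fell from D18 to D32 (0.64 beside -0.01). The shares over all tested genes were 28.8% higher and 29.6% lower, then 26.8% and 22.23%, then 20.6% and 23.7%. Angpt1, the activating ligand of Tek, rose by 5.57 ± 0.54 from D0 to D7 (adjusted p = 3e-09 by edgeR) and fell by 1.77 to D18 (adjusted p = 0.001). Thbs1, an inhibitor of angiogenesis, stood at 869 CPM at D0, 60.4 at D7 and 2.55 at D18, with log2 changes of -3.85 and -4.54 (adjusted p = 3.2e-05 and 2.1e-05). Fgf2, a growth factor of endothelium and neurons, was at 1.20 CPM at D18 and 26.9 at D32, a rise of 4.49 ± 0.56 (adjusted p = 3.6e-07), and it also differed between the library sets.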
